A study of Homo sapiens with 12 samples.

Results

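The G2/M and mitosis genes are 54 human genes whose products prepare cells for mitosis, build and steer the spindle, hold and separate the chromosomes, and divide the cell. They were chosen by a list of symbols and were looked up by Ensembl ID in a table of read counts. All 54 were found among its 57992 gene IDs, and all 54 passed the filter on low counts, which left 16022 genes for testing. The lowest count of any of the 54 genes in any library was 24, for SPC25 in KO LPS BMS replicate 1.

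Transcripts were counted by RNA sequencing in 12 libraries of iMGLs, induced cells that resemble microglia, the macrophages that live in the brain. All were derived from H1, a human pluripotent stem cell line, and the labels give their tissue as brain. KO LPS BMS (2 libraries) were cells with a knockout of the transcription factor MEF2C that received lipopolysaccharide (LPS, a bacterial cell wall component that activates macrophages) together with BMS265246, a compound (BMS for short) that the series title links to inhibition of CDK2. KO LPS (2 libraries) were knockout cells with LPS, WT LPS (2 libraries) were unedited cells with LPS, and KO and WT (3 libraries each) were knockout and unedited cells with vehicle. No library held BMS without LPS, and none held unedited cells with BMS, so the compound could be read only in knockout cells with LPS. Not given in the sources used here are the kind of edit, how many knockout clones there were, and the doses and times of the treatments. The titles number the libraries of a group as biological replicates without saying how the cultures were separated, so p-values measure the spread between these libraries.

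A dividing cell condenses its chromosomes, ties each sister chromatid to spindle microtubules through a kinetochore, and waits at the spindle checkpoint until every kinetochore is attached. The anaphase-promoting complex, activated by CDC20, then marks securin and cyclin B for destruction, separase opens the cohesin rings, and cytokinesis follows. Transcripts of these genes are low in resting cells and accumulate in G2 and mitosis. In resting cells the DREAM complex holds many of them down through a short promoter element, the cell cycle genes homology region (CHR), often together with CCAAT boxes bound by NF-Y, and in cycling cells B-MYB, the MuvB core and FOXM1 activate them. Microglia are long-lived macrophages that mostly rest in the adult brain and can divide in response to injury or in culture, where MKI67 is the usual marker of cycling cells.

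The total count per library was between 13888283 and 17639136. The 54 genes took 0.158% to 0.161% of all counts in KO LPS BMS libraries, 0.223% to 0.241% in KO LPS, 0.276% to 0.308% in WT LPS, 0.279% to 0.288% in KO and 0.377% to 0.379% in WT libraries. Levels are in CPM, which divides each count by its TMM-scaled library total, given per library in the order of the replicate numbers. Changes are log2 fold changes ± SE from edgeR, and a gene was called at an adjusted p under 0.05 over all genes tested. MEF2C, the targeted gene, was still transcribed in knockout cells and was lower there without LPS, at 129 to 136 CPM in KO libraries and 177 to 193 CPM in WT libraries (-0.47 ± 0.05, adjusted p = 4e-07). With LPS it was low in both genotypes, at 43.7 and 44.1 CPM in KO LPS BMS, 45.9 and 46.8 CPM in KO LPS and 49.6 and 51.6 CPM in WT LPS libraries, and KO LPS against WT LPS was not called (-0.13 ± 0.07, adjusted p = 0.187), so under LPS its transcript level does not check the genotype labels. The counts of the pair of KO LPS libraries differed more than those of any other replicate pair (chi-square per degree of freedom 11.05, against 2.02 to 6.99 in the others). The 10 markers of microglia and macrophages summed to 5148 to 5846 CPM over all libraries, but single markers moved apart: with LPS in WT cells PTPRC rose (1.15 ± 0.06) while P2RY12, TREM2, TYROBP and ITGAM fell (-3.05 to -0.61), and CD68 was listed at or near 0 in every library. Of the 9 tested, 4 fell and 2 rose in KO against WT, and 3 fell and 5 rose in KO LPS BMS against KO LPS. Of all genes, 11.4% were lower and 10.2% higher in the first of these comparisons, and 25.5% lower and 22.3% higher in the second. The 6 markers of pluripotent cells summed to at most 0.618 CPM. Of 6 markers of haematopoietic progenitors, whose cells divide, 1 was at 0 in every library, and the list summed to 234 to 252 CPM in KO LPS BMS, 189 to 241 in KO LPS, 131 to 156 in WT LPS, 169 to 185 in KO and 148 to 153 CPM in WT libraries. Markers of neutrophils and mast cells summed to 229 to 232 CPM in KO LPS BMS, 198 to 222 in KO LPS and 179 to 180 in WT LPS libraries. Without LPS they summed to 178 to 198 CPM in KO and 144 to 157 CPM in WT libraries. The 2 of them that were tested were called higher in KO against WT and in KO LPS against WT LPS. Of the 4 progenitor markers tested, 1 and 2 were called higher in these comparisons and none lower. Of all genes, 10.2% and 15.6% were higher there. Markers of mesenchymal cells summed to 20.7 to 23.1 CPM in KO LPS BMS, 18.1 to 24.1 in KO LPS, 16.0 to 17.7 in WT LPS, 18.2 to 59.2 in KO and 10.1 to 27.0 CPM in WT libraries, with a median log2 fold change of 1.03 in KO against WT and none of the 4 tested called. Of the lymphocyte markers, 1 was at 0 in every library and NKG7 alone was tested, which rose with LPS in WT cells (1.04 ± 0.11) and fell with BMS (-0.78 ± 0.13). The part of these markers in the results was not tested.

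The letters of the CHR and of CCAAT boxes were common in the promoters of these genes. RefSeq promoters of build GRCh38.p14, from 250 bases before to 50 bases after each start, were at hand for 47 of the 54 symbols and gave 60 windows, since 8 genes have several starts. The CHR letters TTTGAA or TTCGAA, on either strand, were in 41 of the 60 windows (68.3%), against 16.4% of all 35116 promoters of the same length. CCAAT, on either strand, was in 65.0% against 34.6%, at least 2 copies of it were in 36.7% against 10.8%, and both motifs together were in 51.7% against 6.38%. Within 40 bases of the start, a distance chosen after the positions were seen, the CHR letters were in 51.7% of member windows and in 4.01% of all. These are matches of letters and not sites shown to be bound.

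The following windows are shown because their genes span the range of behaviour described here, from strong falls with BMS (SPC25, TOP2A, KIF20A, NUSAP1, CDC20) and smaller ones (BUB1, PLK1) to the single rise (CKAP2L). Each runs from 120 bases before to 20 bases after the start in RefSeq, 5′ to 3′ on the gene's strand. Capitals mark the CHR letters (TTTGAA or TTCGAA, or TTCAAA on the other strand) and CCAAT boxes (CCAAT, or ATTGG on the other strand). The windows lie at chr2:168890411-168890550 on the minus strand for SPC25, chr17:40417877-40418016 on the minus strand for TOP2A, chr5:138178992-138179131 on the plus strand for KIF20A, and chr15:41332761-41332900 on the plus strand for NUSAP1. The others lie at chr1:43358861-43359000 on the plus strand for CDC20, chr2:110678044-110678183 on the minus strand for BUB1, chr16:23678769-23678908 on the plus strand for PLK1, and chr2:112764590-112764729 on the minus strand for CKAP2L.
SPC25: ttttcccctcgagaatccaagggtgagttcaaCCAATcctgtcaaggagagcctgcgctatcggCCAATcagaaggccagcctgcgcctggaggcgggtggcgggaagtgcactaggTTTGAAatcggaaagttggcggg
TOP2A: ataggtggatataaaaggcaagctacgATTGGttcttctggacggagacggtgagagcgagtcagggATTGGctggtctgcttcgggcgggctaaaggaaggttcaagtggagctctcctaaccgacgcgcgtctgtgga
KIF20A: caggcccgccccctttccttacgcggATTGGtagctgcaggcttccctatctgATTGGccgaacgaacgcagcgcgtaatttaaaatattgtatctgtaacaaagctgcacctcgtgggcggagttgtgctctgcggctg
NUSAP1: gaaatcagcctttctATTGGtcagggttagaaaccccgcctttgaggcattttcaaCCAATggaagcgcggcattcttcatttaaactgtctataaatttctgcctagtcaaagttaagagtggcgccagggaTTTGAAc
CDC20: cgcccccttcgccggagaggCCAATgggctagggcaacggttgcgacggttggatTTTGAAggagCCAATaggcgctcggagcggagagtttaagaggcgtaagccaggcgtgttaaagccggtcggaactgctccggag
BUB1: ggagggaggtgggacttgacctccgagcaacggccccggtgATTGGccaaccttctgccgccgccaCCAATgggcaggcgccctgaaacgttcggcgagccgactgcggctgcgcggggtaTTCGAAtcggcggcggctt
PLK1: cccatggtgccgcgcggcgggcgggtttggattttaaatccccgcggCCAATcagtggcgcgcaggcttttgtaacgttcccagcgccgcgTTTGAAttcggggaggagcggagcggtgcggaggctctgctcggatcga
CKAP2L: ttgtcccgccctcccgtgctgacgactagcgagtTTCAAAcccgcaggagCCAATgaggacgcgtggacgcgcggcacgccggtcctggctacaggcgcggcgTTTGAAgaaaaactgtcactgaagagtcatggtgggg
SPC25 and BUB1 both carry 2 CCAAT boxes ahead of CHR letters at the start itself, PLK1 and CDC20 carry the CHR letters within the last 65 bases before the start, and the windows of KIF20A and TOP2A show CCAAT boxes only (TOP2A has CHR letters farther upstream). CKAP2L, whose level moved against the others with BMS, carries the same letters as they do, with 2 CHR matches and 1 CCAAT box. Across the 47 genes, 39 had CHR letters in the whole window and 8 did not. The median log2 fold change of KO LPS BMS against KO LPS was -0.50 for the 39 and -0.78 for the 8, and that of KO against WT was -0.41 and -0.34.

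Seen over all groups, the genes were lowest where knockout, LPS and BMS came together and in most cases highest in WT cells. Relative to the WT mean, the median over the 54 genes was 53.7% in KO LPS BMS, 74.1% in KO LPS, 96.0% in WT LPS and 76.5% in KO. KO LPS BMS was the group with the lowest mean for 48 of the 54 genes, as it was for 4859 of the 16022 genes tested. In 44 of the 54, each KO LPS BMS library lay below the 10 other libraries, which held for 3030 of all genes. WT was the highest group for 32 genes, as it was for 3767 of the 16022 genes tested. WT LPS was highest for most of the rest, which was not counted over all genes. The most frequent order of the group means, found for 19 genes, was KO LPS BMS, KO LPS, KO, WT LPS, WT from low to high. In these bulk libraries, fewer dividing cells and less of each RNA per cell cannot be told apart.

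**Figure D1:**
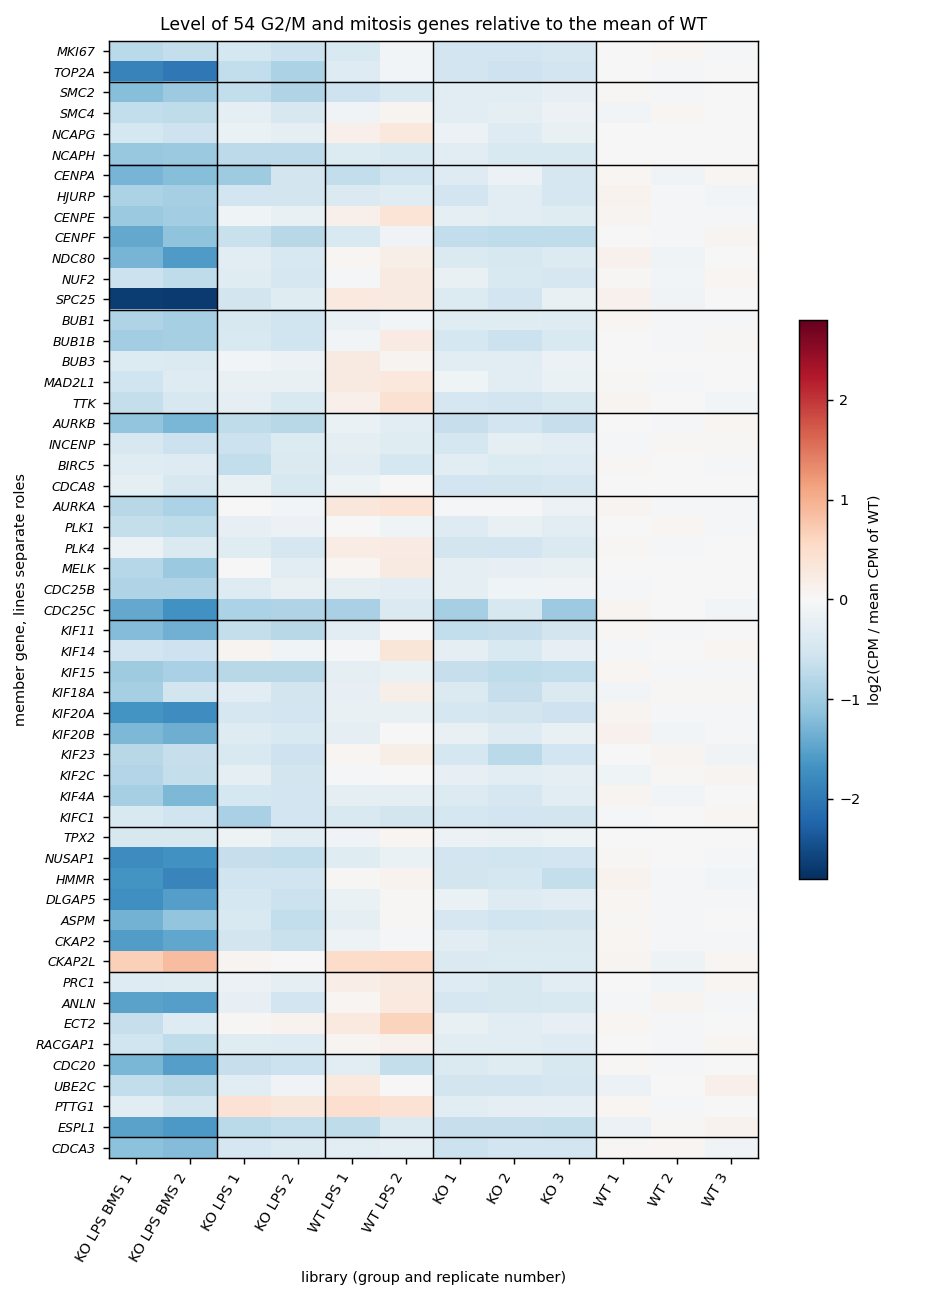
Level of each of the 54 genes (rows, grouped by role) in each of the 12 libraries (columns), as log2 of its CPM over the mean CPM of WT, with blue for lower and red for higher. The columns of KO LPS BMS are blue in nearly every row, deepest for SPC25 at 15.7% of the WT mean, and CKAP2L at 170% is the one row that is red there.

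Without LPS, knockout cells had lower levels of nearly all of the 54 listed genes. Of the 54 genes, 50 fell and none rose in KO against WT, where 21.6% of all genes tested were called, 11.4% lower and 10.2% higher. The median log2 fold change was -0.38, against -0.02 over all genes, and the changes ran from -0.77 for CDC25C to -0.07 for AURKA, so all 54 estimates were below 0 and none reached a 2-fold fall. The KO and WT libraries did not overlap for 53 of the genes, with KO lower each time, against 22.3% of all genes. With DESeq2, 47 fell and none rose, where 8.75% of all genes were lower and 8.03% higher. At an unadjusted p under 0.05 edgeR gave 53 falls and 0 rises. The share of all genes at an unadjusted p was not counted, here or in the comparisons below.

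Both genes of the chromosome surface and topology were lower. MKI67 (ENSG00000148773, chr10:128096659-128126385, minus strand), which coats mitotic chromosomes, had 266, 264 and 277 CPM in KO libraries and 384, 399 and 371 CPM in WT libraries. TOP2A (ENSG00000131747, chr17:40388516-40417950, minus strand), the topoisomerase that untangles sister DNA, had 219, 211 and 219 CPM in KO libraries and 321, 312 and 317 CPM in WT libraries, a log2 fold change of -0.55 ± 0.06, adjusted p = 2.06e-06. The 3 KO values were close together for both genes and lay well under the WT values. All 4 condensin genes, whose products compact chromosomes, were lower, with log2 fold changes of -0.39 ± 0.06 for NCAPH, -0.29 ± 0.06 for the ATPase SMC2, -0.25 ± 0.06 for SMC4 and -0.25 ± 0.07 for NCAPG.

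At the centromere and kinetochore 6 of 7 genes were lower. CENPF (ENSG00000117724, chr1:214603195-214664588, plus strand), a large protein of the outer kinetochore, had 101, 99.2 and 98.5 CPM in KO libraries and 159.6, 155 and 171 CPM in WT libraries. It had the largest fall among the kinetochore genes (-0.70 ± 0.08, adjusted p = 1.63e-05). The genes of the microtubule-binding NDC80 complex changed by similar amounts, with -0.41 ± 0.08 for NDC80, -0.37 ± 0.10 for NUF2 and -0.36 ± 0.11 for SPC25. The motor CENPE changed by -0.31 ± 0.07, with 44.1, 41.9 and 41.7 CPM in KO and 55.4, 50.9 and 51.4 CPM in WT libraries, and HJURP, the chaperone that loads the centromeric histone, by -0.43 ± 0.08. That histone, CENPA, was not called (-0.32 ± 0.12, adjusted p = 0.0661), although its KO and WT libraries did not overlap.

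Of the 5 spindle checkpoint genes 4 were lower. The checkpoint kinases BUB1 and TTK and the CDC20 inhibitor BUB1B changed by -0.35 ± 0.06, -0.49 ± 0.09 and -0.51 ± 0.07. BUB1 had 49.1, 49.0 and 48.1 CPM in KO libraries and 64.3, 61.1 and 61.1 CPM in WT libraries. BUB3, which anchors BUB1 at kinetochores, had 78.3, 78.5 and 87.3 CPM in KO libraries and 98.0, 98.1 and 97.5 CPM in WT libraries (-0.27 ± 0.06). MAD2L1, the checkpoint protein that binds CDC20, was at 23.6, 20.4 and 22.5 CPM in KO and 26.2, 25.1 and 25.3 CPM in WT libraries and was not called (-0.21 ± 0.08, adjusted p = 0.0739). The groups of MAD2L1 lay close together without overlapping.

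All 4 genes of the chromosomal passenger complex, which corrects faulty attachments and later guides cytokinesis, were lower. Its kinase AURKB (ENSG00000178999, chr17:8204733-8210600, minus strand) had 27.3, 29.6 and 27.2 CPM in KO libraries and 42.4, 41.6 and 44.8 CPM in WT libraries (-0.61 ± 0.07, adjusted p = 1.2e-06). Its other subunits CDCA8, INCENP and BIRC5 (survivin) changed by -0.50 ± 0.08, -0.35 ± 0.07 and -0.35 ± 0.08. Among the other kinases and the CDC25 phosphatases, which remove the brake from CDK1, 4 of 6 were lower. CDC25C (ENSG00000158402, chr5:138285265-138338355, minus strand), the lowest of them in CPM, had 5.03, 7.04 and 4.73 CPM in KO libraries and 10.1, 9.47 and 9.11 CPM in WT libraries, and its fall was the largest of all 54 (-0.77 ± 0.15, adjusted p = 0.000683). PLK4, which starts centriole duplication, changed by -0.48 ± 0.08, PLK1, the kinase of mitotic entry and spindle assembly, by -0.29 ± 0.07, and the kinase MELK by -0.23 ± 0.08. AURKA, the kinase of the spindle poles, was the one gene whose KO and WT libraries overlapped, at 48.1, 48.6 and 44.3 CPM in KO and 52.2, 48.0 and 48.4 CPM in WT libraries. CDC25B had 53.8, 60.2 and 60.5 CPM in KO and 64.0, 65.4 and 66.0 CPM in WT libraries and was not called (-0.16 ± 0.06, adjusted p = 0.0652).

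All 10 kinesins, the motors that move along spindle microtubules, were lower, between -0.68 for KIF15 and -0.26 for KIF20B. KIF11, which pushes the spindle poles apart, had 53.7, 55.1 and 60.6 CPM in KO libraries and 89.0, 84.4 and 85.8 CPM in WT libraries (-0.61 ± 0.07, adjusted p = 1.14e-06). KIF15, which can share that task, had 20.8, 19.8 and 19.9 CPM in KO libraries and 33.8, 31.5 and 31.7 CPM in WT libraries (-0.68 ± 0.07, adjusted p = 3.39e-07). In both genes the 3 KO values lay under the 3 WT values. KIF2C, a kinesin that takes microtubule ends apart at the centromere, had 35.4, 33.2 and 34.1 CPM in KO and 38.1, 42.5 and 43.2 CPM in WT libraries, a smaller change of -0.27 ± 0.07. All 7 spindle assembly genes fell, with -0.55 ± 0.07 for HMMR and -0.54 ± 0.06 for NUSAP1. The smallest called fall was that of TPX2, the activator of AURKA, at 156, 154 and 158 CPM in KO and 175, 174 and 177 CPM in WT libraries (-0.17 ± 0.05, adjusted p = 0.025).

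The midzone and cytokinesis genes fell as a group of 4. ANLN, which organizes the contractile ring, changed by -0.45 ± 0.07, the microtubule bundler PRC1 by -0.37 ± 0.06, the central spindle protein RACGAP1 by -0.33 ± 0.06 and its partner ECT2 by -0.24 ± 0.08. PRC1 had 41.8, 39.5 and 44.0 CPM in KO libraries and 54.4, 51.1 and 56.0 CPM in WT libraries. All 4 genes of anaphase and mitotic exit fell too, led by ESPL1 (separase, ENSG00000135476, chr12:53268299-53293643, plus strand) with 36.7, 36.7 and 35.9 CPM in KO and 51.4, 58.7 and 61.6 CPM in WT libraries (-0.65 ± 0.08, adjusted p = 1.46e-06). The ubiquitin-conjugating enzyme UBE2C changed by -0.51 ± 0.09, CDC20 by -0.40 ± 0.08 and PTTG1 (securin) by -0.28 ± 0.08, and CDCA3, a factor that speeds mitotic entry, by -0.56 ± 0.09. When single libraries were left out, 42 to 46 genes were called lower, where 8.3% to 9.18% of all genes were lower. The calls of NCAPG, NUF2, SPC25, KIF14, KIF18A, KIF20B and KIF2C ended in at least 1 of the 6 leave-outs, and those of ECT2, MELK and TPX2 in each of them.

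**Figure D2:**
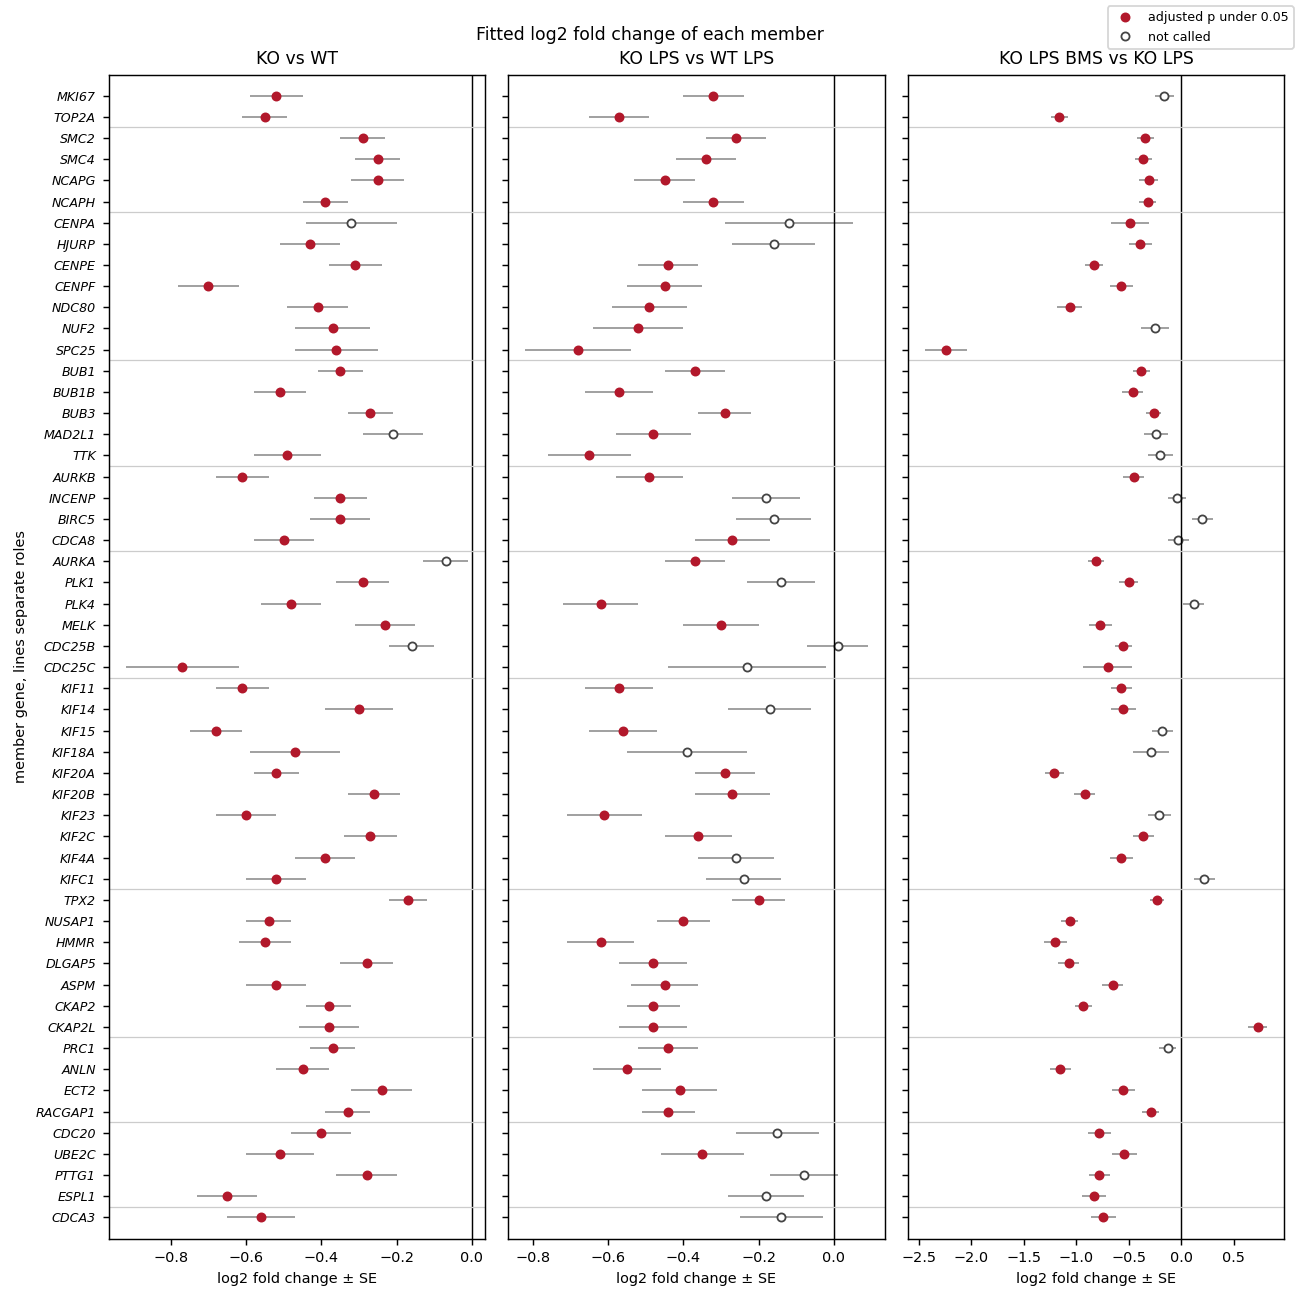
Fitted log2 fold change of each gene (points) with its SE (bars), by role from top to bottom, for KO against WT, KO LPS against WT LPS and KO LPS BMS against KO LPS, each panel with its own scale. Filled points passed an adjusted p under 0.05. The first 2 panels lie almost wholly left of 0 within a narrow range, and the third spreads from -2.24 for SPC25 to 0.73 for CKAP2L.

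The knockout difference was also present under LPS, between groups whose means did not enter the first comparison. The filter, the scaling and the estimate of the spread were shared over all 12 libraries. Whether both comparisons rest on the same knockout clones is not given. In KO LPS against WT LPS, 39 of the 54 genes fell and none rose, where 30.6% of all genes were called, 15.0% lower and 15.6% higher. The median was -0.37, against 0.03 over all genes, and KO LPS lay below WT LPS without overlap for 47 genes, against 29% of all genes. At an unadjusted p under 0.05 there were 43 falls and 0 rises. DESeq2 called 38 and 0, where 17.2% of all genes were lower and 13.4% higher. SPC25 had 8.38 and 9.44 CPM in KO LPS libraries and 14.4 and 14.2 CPM in WT LPS libraries (-0.68 ± 0.14, adjusted p = 0.000896). TTK had 21.2 and 18.9 CPM in KO LPS and 28.2 and 34.5 CPM in WT LPS libraries (-0.65 ± 0.11, adjusted p = 0.000166). In both genes the WT LPS libraries lay above the KO LPS libraries. PLK4 had 24.0 and 21.9 CPM in KO LPS and 35.1 and 35.5 CPM in WT LPS libraries (-0.62 ± 0.10, adjusted p = 4.69e-05). HMMR, a spindle protein first known as a hyaluronan receptor, had 27.7 and 27.6 CPM in KO LPS and 41.4 and 43.6 CPM in WT LPS libraries (-0.62 ± 0.09, adjusted p = 2.75e-05). KIF23, the motor of the central spindle, had 29.6 and 26.7 CPM in KO LPS and 41.2 and 44.6 CPM in WT LPS libraries (-0.61 ± 0.10, adjusted p = 8.21e-05).

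All 5 checkpoint genes, all 7 spindle assembly genes, all 4 condensin genes and all 4 cytokinesis genes were called lower in KO LPS. RACGAP1 had 51.7 and 51.5 CPM in KO LPS and 69.0 and 71.0 CPM in WT LPS libraries (-0.44 ± 0.07), and SMC4 had 84.0 and 72.9 CPM in KO LPS and 93.0 and 106 CPM in WT LPS libraries (-0.34 ± 0.08). MAD2L1 and AURKA, which had not passed the test without LPS, were among the falls (-0.48 ± 0.10, adjusted p = 0.000883 for MAD2L1 and -0.37 ± 0.08, adjusted p = 0.00111 for AURKA). Those that did not pass included CDC20 (-0.15 ± 0.11), PTTG1 (-0.08 ± 0.09), ESPL1 (-0.18 ± 0.10) and CDC25B (0.01 ± 0.08, the only estimate above 0), and PLK1 at 33.1 and 34.7 CPM in KO LPS and 39.1 and 35.5 CPM in WT LPS libraries (-0.14 ± 0.09). Without KO LPS replicate 2, and likewise without WT LPS replicate 2, 31 genes were called lower, and the calls of 13 genes ended in at least 1 leave-out, among them MKI67, SMC2, SMC4, MELK and TPX2.

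With LPS the genes moved in both directions in unedited cells. In WT LPS against WT, 20 of the 54 genes fell, 11 rose and 23 were not called, where 59.7% of all genes were called, 30.8% lower and 28.9% higher, so the share of called genes was close to that of all genes. The median was -0.06, against -0.07 over all genes. Scaling bears on these signs, since the TMM factors were 0.902 to 0.907 in WT LPS and 1.096 to 1.109 in WT libraries. On library size alone the median of all genes was -0.36 and that of the 54 was -0.34. There were then 34 falls and 1 rise, where 47.8% of all genes were lower and 17.4% higher. Relative to all genes the median of the 54 was thus near 0 on both scales.

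The falls were led by CDC25C, with 5.12 and 7.19 CPM in WT LPS libraries and 10.1, 9.47 and 9.11 CPM in WT libraries (-0.63 ± 0.17, adjusted p = 0.00361). CENPA had 7.77 and 8.57 CPM in WT LPS and 13.0, 11.7 and 13.0 CPM in WT libraries (-0.62 ± 0.14, adjusted p = 0.000878). Both are low genes, and in both the groups did not overlap. ESPL1 had 34.9 and 43.2 CPM in WT LPS libraries, below all WT values (-0.55 ± 0.09, adjusted p = 1.49e-05). SMC2 had 66.0 and 73.7 CPM in WT LPS and 101, 95.0 and 100 CPM in WT libraries (-0.50 ± 0.07, adjusted p = 2.64e-06), and CDC20 had 37.5 and 29.5 CPM in WT LPS and 47.5, 44.9 and 47.3 CPM in WT libraries (-0.48 ± 0.09, adjusted p = 0.000138). Of the passenger complex 3 of 4 genes fell, and of the kinesins 4 of 10.

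The rises were led by CKAP2L, a microtubule-associated protein of the spindle, with 44.3 and 44.8 CPM in WT LPS libraries and 32.8, 28.2 and 32.0 CPM in WT libraries (0.52 ± 0.08, adjusted p = 9.49e-06). ECT2, which is needed for cytokinesis, had 48.3 and 62.0 CPM in WT LPS and 41.3, 38.6 and 40.01 CPM in WT libraries (0.47 ± 0.09, adjusted p = 0.000156). PTTG1 had 32.4 and 31.1 CPM in WT LPS and 24.2, 22.7 and 23.4 CPM in WT libraries (0.44 ± 0.08, adjusted p = 0.000125). In these 3 genes both WT LPS libraries lay above every WT library. AURKA had 61.3 and 64.3 CPM in WT LPS and 52.2, 48.0 and 48.4 CPM in WT libraries (0.34 ± 0.07, adjusted p = 0.000211), and TTK had 28.2 and 34.5 CPM in WT LPS and 27.1, 25.3 and 24.4 CPM in WT libraries (0.30 ± 0.10, adjusted p = 0.0133). On library size alone these 5 stayed above 0 and CKAP2L alone stayed called, while NCAPG, CENPE, BUB3, MAD2L1, PLK4 and PRC1, the other 6 called rises, turned to values below 0. The calls of 16 of the 31 called genes ended in at least 1 leave-out. That of CDC25C ended without WT LPS replicate 1, and that of TTK without WT LPS replicate 2 or WT replicate 3. Without WT LPS replicate 1 there were 12 falls, and without WT LPS replicate 2 there were 6 rises. DESeq2 called 13 falls and 10 rises, where 20.6% of all genes were lower and 23% higher.

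In knockout cells fewer of the genes were called with LPS than in unedited cells, and fewer of all genes were called as well. Counts of calls do not test a difference of the responses, which is the interaction given below. In KO LPS against KO, 6 fell, 5 rose and 43 were not called, where 44.8% of all genes were called, 20.3% lower and 24.5% higher, so fewer of the 54 were called than of all genes. The median was -0.03, against 0.00 over all genes, and KO LPS lay below KO without overlap for 15 genes and above it for 10, against 30.1% and 32.0% of all genes. On library size alone, where the median of all genes was -0.26, there were 35 falls and 1 rise. Of all genes, 40% were lower and 13.7% higher on that scale. SMC2 fell again, with 61.2 and 55.3 CPM in KO LPS and 78.9, 78.5 and 83.5 CPM in KO libraries (-0.46 ± 0.07, adjusted p = 1.44e-05), as did CENPA (-0.42 ± 0.15, adjusted p = 0.0288), the condensin subunit NCAPH (-0.34 ± 0.07, adjusted p = 0.000387), DLGAP5, which stabilizes spindle microtubules (-0.26 ± 0.09, adjusted p = 0.0153), TOP2A (-0.24 ± 0.07, adjusted p = 0.0129) and the spindle protein CKAP2 (-0.19 ± 0.07, adjusted p = 0.0316).

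PTTG1, the securin that holds separase inactive, rose most, with 31.1 and 29.01 CPM in KO LPS libraries and 19.0, 19.4 and 19.5 CPM in KO libraries (0.64 ± 0.09, adjusted p = 2.44e-06). CKAP2L had 32.9 and 30.8 CPM in KO LPS and 23.5, 23.9 and 23.9 CPM in KO libraries (0.42 ± 0.09, adjusted p = 0.000356). UBE2C, which hands ubiquitin to the anaphase-promoting complex, had 26.9 and 30.8 CPM in KO LPS and 23.2, 22.8 and 23.6 CPM in KO libraries (0.31 ± 0.10, adjusted p = 0.0165). For these 3 genes the groups did not overlap. ECT2 had 40.6 and 42.6 CPM in KO LPS and 34.7, 32.8 and 33.9 CPM in KO libraries (0.30 ± 0.10, adjusted p = 0.0138), and the kinesin KIF14 had 32.6 and 28.8 CPM in KO LPS and 26.1, 22.9 and 26.2 CPM in KO libraries (0.29 ± 0.10, adjusted p = 0.0242). All 5 stayed above 0 on library size alone, where only PTTG1 stayed called. The calls of CENPA, DLGAP5, TOP2A, CKAP2, UBE2C, ECT2 and KIF14 each ended without 1 or 2 of the single libraries, KO LPS replicate 2 in the case of DLGAP5, TOP2A, CKAP2, UBE2C and ECT2.

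The LPS responses of the 2 genotypes, which share no library, ran in parallel across the genes. Spearman's rank correlation over the 54 genes was 0.75, against 0.81 over all 16022 genes, and 44 of the 54 had the same sign. This is a description across genes, which are not independent replicates. The difference of the responses was tested as an interaction, where 12% of all genes were called, 5.57% lower and 6.42% higher. Of the 54 genes ESPL1 alone was called, higher, and none was called lower. At an unadjusted p under 0.05 there were 4 higher and 2 lower. DESeq2 called 1 higher and 0 lower, where 6.63% of all genes were higher and 8.23% lower. ESPL1 had 33.8 and 35.3 CPM in KO LPS and 36.7, 36.7 and 35.9 CPM in KO libraries, so its level differed little with LPS in knockout cells (-0.08 ± 0.09, adjusted p = 0.534), while it fell in unedited ones. The difference was 0.47 ± 0.13, adjusted p = 0.0174, and it did not pass without KO LPS replicate 2, WT LPS replicate 1 or WT replicate 3.

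**Figure D3:**
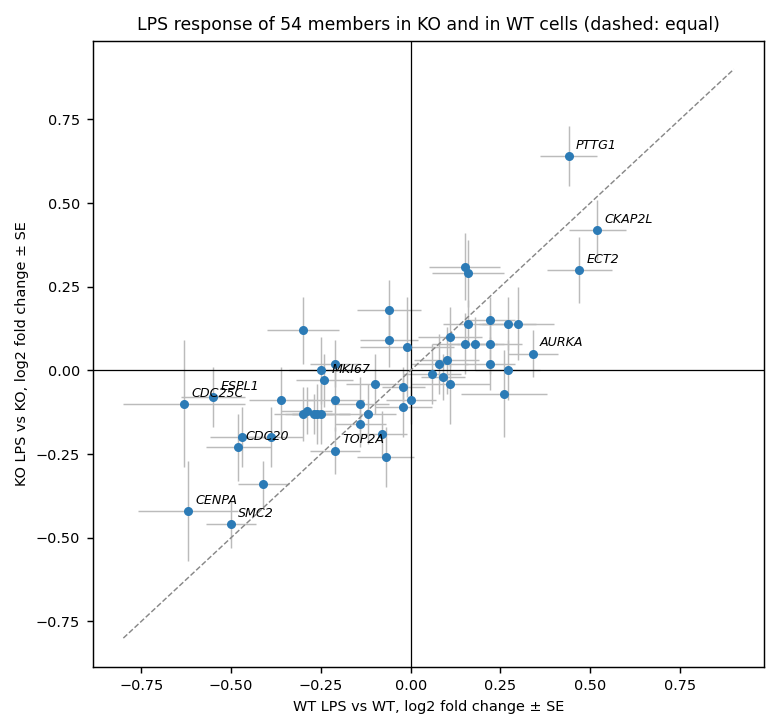
LPS response of each of the 54 genes as log2 fold change, in WT cells on the horizontal axis and in KO cells on the vertical axis, with SE bars and a dashed line of equal responses. PTTG1 and CKAP2L lie at the upper right, CENPA and SMC2 at the lower left, and ESPL1, at -0.55 in WT and -0.08 in KO cells, lies above the line.

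The largest changes of the 54 genes were those with BMS. In KO LPS BMS against KO LPS, 40 of the 54 genes fell, 1 rose and 13 were not called, where 47.8% of all genes were called, 25.5% lower and 22.3% higher. The median was -0.50, against -0.04 over all genes, and 8 genes fell at least 2-fold. KO LPS BMS lay below KO LPS without overlap for 47 genes and above it for 2, against 37.6% and 32.8% of all genes.

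The falls were uneven within complexes. In the NDC80 complex, the part of the kinetochore that grips microtubules, SPC25 (ENSG00000152253, chr2:168834132-168913371, minus strand) was at 1.89 and 1.87 CPM in KO LPS BMS libraries and at 8.38 and 9.44 CPM in KO LPS libraries, a 4.73-fold fall (-2.24 ± 0.20, adjusted p = 6.66e-09). NDC80 (ENSG00000080986, chr18:2571511-2616635, plus strand) had 13.6 and 11.1 CPM in KO LPS BMS and 26.9 and 24.4 CPM in KO LPS libraries (-1.06 ± 0.12, adjusted p = 1.52e-07). NUF2, the partner of NDC80 in the complex, was not called, at 14.3 and 13.3 CPM in KO LPS BMS and 17.2 and 15.6 CPM in KO LPS libraries (-0.25 ± 0.13, adjusted p = 0.128), and neither was SPC24, the partner of SPC25 and not one of the 54 (-0.51 ± 0.21, adjusted p = 0.0529). The same subunits had log2 fold changes between -0.53 (SPC24) and -0.36 (SPC25) in KO against WT. Whether their changes with BMS differ from each other was not tested. CENPE (-0.83 ± 0.09), CENPF (-0.57 ± 0.11), CENPA (-0.49 ± 0.18) and HJURP (-0.39 ± 0.11) also fell, with CENPA at 5.12 and 5.54 CPM in KO LPS BMS and 6.26 and 8.82 CPM in KO LPS libraries.

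Of the proliferation markers, TOP2A had 86.0 and 78.5 CPM in KO LPS BMS and 196 and 171 CPM in KO LPS libraries (-1.16 ± 0.08, adjusted p = 1.12e-09). MKI67 had 229.5 and 241 CPM in KO LPS BMS and 272 and 253 CPM in KO LPS libraries and was not called (-0.16 ± 0.09, adjusted p = 0.137), although its groups did not overlap. The 4 condensin genes fell by 0.31 to 0.36 on the log2 scale. Of the checkpoint genes BUB1, BUB1B and BUB3 fell (-0.38 ± 0.08, -0.46 ± 0.10 and -0.26 ± 0.07), and MAD2L1 (-0.24 ± 0.11) and TTK (-0.20 ± 0.12) were not called.

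In the passenger complex AURKB alone was called, with 19.9 and 17.7 CPM in KO LPS BMS and 26.3 and 25.1 CPM in KO LPS libraries (-0.45 ± 0.10, adjusted p = 0.000745). BIRC5 had 32.2 and 31.4 CPM in KO LPS BMS and 25.0 and 30.4 CPM in KO LPS libraries (0.20 ± 0.10, adjusted p = 0.102). INCENP (-0.04 ± 0.09) and CDCA8 (-0.03 ± 0.10) had estimates near 0. Of the other kinases and phosphatases 5 of 6 fell. AURKA had 28.8 and 26.9 CPM in KO LPS BMS and 50.2 and 47.2 CPM in KO LPS libraries (-0.81 ± 0.08, adjusted p = 7.6e-08). MELK had 20.5 and 17.4 CPM in KO LPS BMS and 35.4 and 28.9 CPM in KO LPS libraries (-0.77 ± 0.11, adjusted p = 5.04e-06). Of these kinases AURKA had not been called in KO against WT. PLK1 changed by -0.50 ± 0.09 and CDC25B by -0.55 ± 0.08, while PLK4 was not called, at 27.0 and 23.0 CPM in KO LPS BMS and 24.0 and 21.9 CPM in KO LPS libraries (0.12 ± 0.10).

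The kinesins split. KIF20A (ENSG00000112984, chr5:138178719-138187715, plus strand), which carries the passenger complex to the midzone, had 15.3 and 14.8 CPM in KO LPS BMS and 35.3 and 34.0 CPM in KO LPS libraries, a 2.31-fold fall (-1.21 ± 0.09, adjusted p = 6.4e-10). KIF20B followed with -0.92 ± 0.10, and KIF11, KIF4A, KIF14 and KIF2C fell by 0.36 to 0.57 on the log2 scale. The other 4 were not called, namely KIF15 (-0.18 ± 0.10), KIF18A (-0.29 ± 0.17), KIF23 (-0.21 ± 0.11) and KIFC1, a minus-end motor (0.22 ± 0.10).

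Spindle assembly held the largest median of the roles with more than 2 genes, -0.93. HMMR had 12.8 and 11.3 CPM in KO LPS BMS and 27.7 and 27.6 CPM in KO LPS libraries (-1.20 ± 0.11, adjusted p = 8.09e-09). NUSAP1, which bundles microtubules near chromosomes, had 31.4 and 32.6 CPM in KO LPS BMS and 68.2 and 65.3 CPM in KO LPS libraries (-1.06 ± 0.08, adjusted p = 2.35e-10). Both genes fell by more than 2-fold. DLGAP5 (-1.07 ± 0.10), CKAP2 (-0.93 ± 0.08), ASPM, a spindle pole protein (-0.65 ± 0.10), and TPX2 (-0.23 ± 0.07) fell as well. CKAP2L (ENSG00000169607, chr2:112736607-112764677, minus strand) was the one gene that rose, with 49.1 and 56.3 CPM in KO LPS BMS and 32.9 and 30.8 CPM in KO LPS libraries, a 1.66-fold rise (0.73 ± 0.09, adjusted p = 1.08e-06).

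Among the cytokinesis genes ANLN (ENSG00000011426, chr7:36389806-36453791, plus strand) had 25.4 and 24.7 CPM in KO LPS BMS and 61.0 and 49.9 CPM in KO LPS libraries (-1.15 ± 0.10, adjusted p = 3.83e-09). ECT2 (-0.55 ± 0.11) and RACGAP1 (-0.29 ± 0.08) fell less, and PRC1 was not called (-0.13 ± 0.08). All 4 genes of anaphase and mitotic exit fell. ESPL1 had 20.2 and 18.7 CPM in KO LPS BMS against 33.8 and 35.3 CPM in KO LPS libraries (-0.83 ± 0.11, adjusted p = 2.15e-06). PTTG1 had 18.8 and 16.4 CPM in KO LPS BMS against 31.1 and 29.01 CPM in KO LPS libraries (-0.78 ± 0.10, adjusted p = 1.43e-06), so separase and its inhibitor were both lower. CDC20 changed by -0.78 ± 0.11, UBE2C by -0.54 ± 0.12 and CDCA3 by -0.74 ± 0.12. On library size alone the median was -0.58 (-0.12 over all genes), with 46 falls and 1 rise. On that scale 30.4% of all genes were lower and 17.9% higher. Leaving out single libraries gave 33 to 38 falls, with 33 when KO LPS replicate 1 was left out, and the calls of 10 genes ended in at least 1 leave-out, namely BUB3, CDC25C, CENPA, HJURP, KIF2C, NCAPG, RACGAP1, SMC2, SMC4 and TPX2. The shares of all genes called lower and higher were smaller in these fits too.

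**Figure D4:**
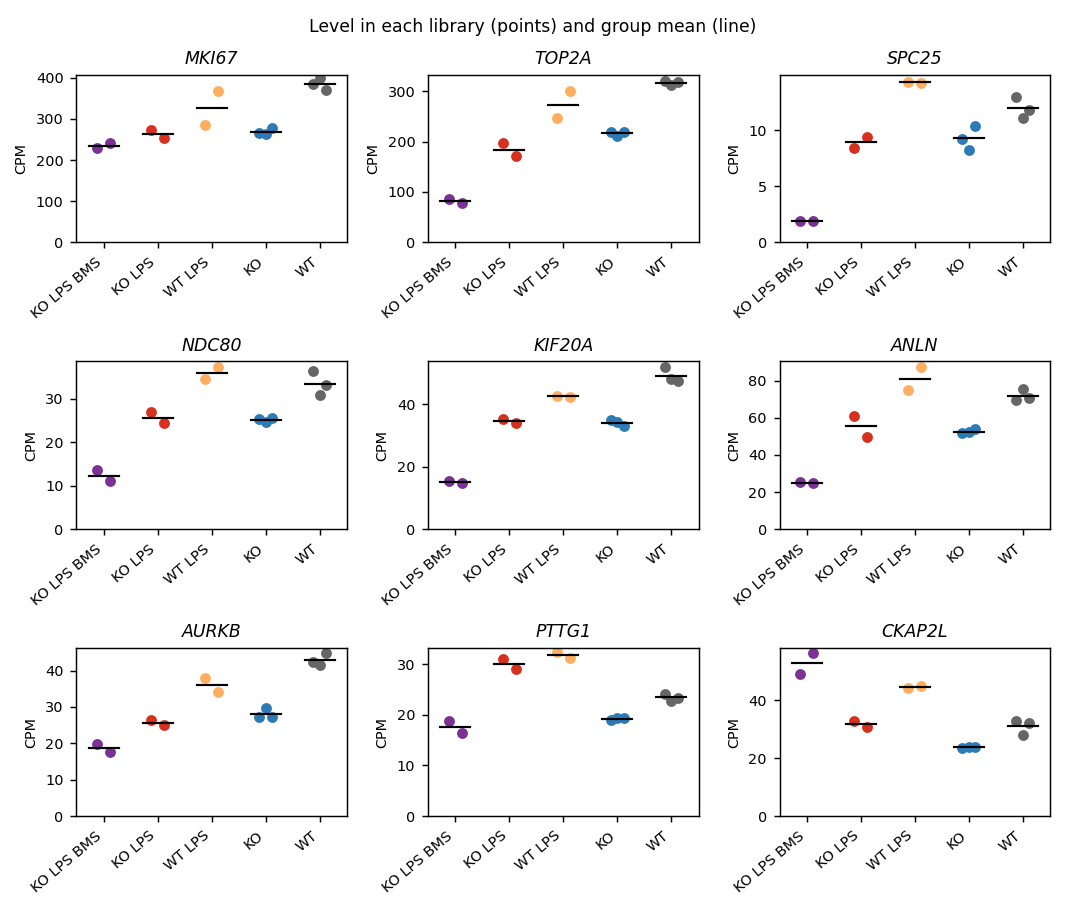
CPM of 9 genes in each library (points) with the group mean (line), from KO LPS BMS on the left to WT on the right, each panel with its own axis from 0. MKI67 differs little between KO LPS BMS and KO LPS, TOP2A, SPC25, NDC80, KIF20A and ANLN drop to their lowest level in KO LPS BMS, and CKAP2L is highest there.

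Set against knockout cells with vehicle, a comparison that shares its KO libraries with KO LPS against KO, KO LPS BMS had 41 falls and 1 rise, where 62.7% of all genes were called, 32.4% lower and 30.3% higher. The median was -0.51, against -0.06 over all genes, and 11 genes fell at least 2-fold. KO LPS BMS lay below KO without overlap for 44 genes and above it for 3, against 40.2% and 36.0% of all genes. PTTG1 and UBE2C, which LPS had raised in knockout cells, were not called here (-0.14 ± 0.09, adjusted p = 0.209 for PTTG1 and -0.23 ± 0.11, adjusted p = 0.071 for UBE2C). CKAP2L, also raised by LPS, was higher still, by 1.15 ± 0.08. TOP2A, SMC2 and DLGAP5, which LPS had lowered, lay at -1.40 ± 0.08, -0.81 ± 0.07 and -1.34 ± 0.10. The call of MKI67 (-0.19 ± 0.08, adjusted p = 0.0393) ended without any 1 of the 5 libraries compared. On library size alone the median was -0.85 (-0.39 over all genes).

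Of the genes that LPS raised, CKAP2L and PTTG1 were set beside a neighbour that LPS strongly raises. The sources used here do not give the strand setting of the counting. Neighbours of the other raised genes are not described here. CKAP2L lies 9.24 kb downstream of IL1A, the cytokine interleukin-1 alpha, on the same strand. IL1A had 402 and 434 CPM in KO LPS BMS, 741 and 677 CPM in KO LPS, 637 and 689.6 CPM in WT LPS, 22.5, 21.9 and 21.8 CPM in KO and 22.0, 23.1 and 19.4 CPM in WT libraries. With LPS both genes were higher in both genotypes, but with BMS IL1A fell (-0.76 ± 0.07, adjusted p = 7.29e-09) where CKAP2L rose. PTTG1 lies upstream of MIR3142HG, the host transcript of the microRNAs MIR3142 and MIR146A, at 9.85 kb on the same strand. MIR3142HG had 13.0 and 11.3 CPM in KO LPS BMS, 33.9 and 26.8 CPM in KO LPS, 37.1 and 37.6 CPM in WT LPS, 2.84, 2.29 and 2.69 CPM in KO and 3.78, 3.91 and 4.07 CPM in WT libraries. PTTG1 and MIR3142HG ran in the same direction with LPS and with BMS. Whether reads pass from 1 gene to the other was not tested.

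**Figure D5:**
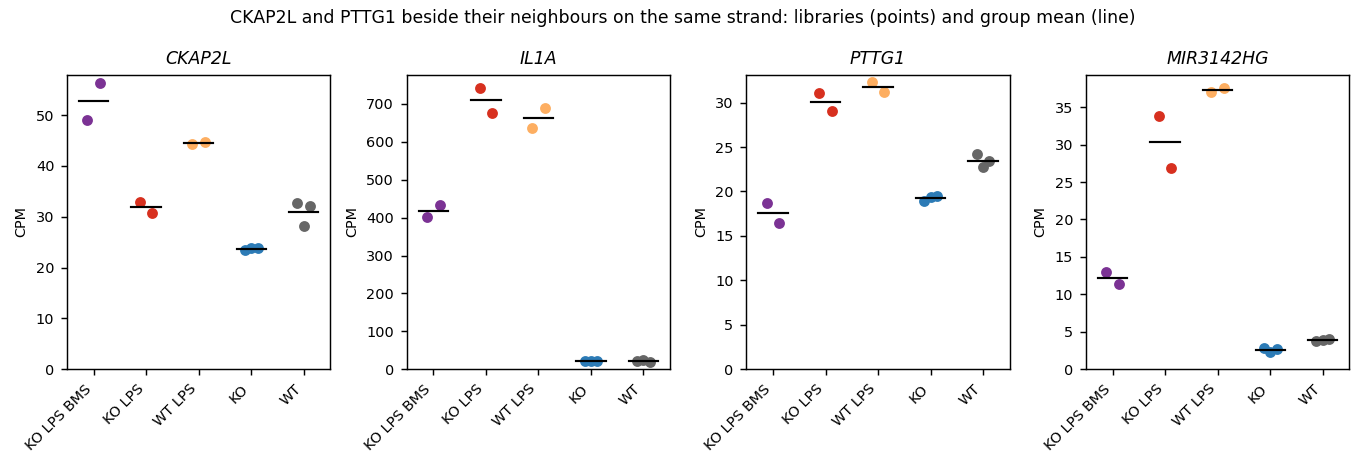
CPM of CKAP2L and PTTG1 beside the genes next to them on the same strand, IL1A and MIR3142HG, in each library (points) with the group mean (line). CKAP2L is highest and IL1A lower than in the other LPS groups in KO LPS BMS, while PTTG1 and MIR3142HG both drop there.

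Some members overlap other genes. CENPA overlaps SLC35F6 on the same strand, and SLC35F6 moved down with LPS too (-0.77 ± 0.06, adjusted p = 3.81e-10 in WT LPS against WT, and -0.62 ± 0.06, adjusted p = 1.78e-08 in KO LPS against KO). KIF20A overlaps BRD8 on the other strand, which fell with BMS (-0.52 ± 0.09, adjusted p = 6.8e-05), and also CDC23 (0.11 ± 0.08, adjusted p = 0.309). CDC25C overlaps FAM53C on the other strand, with 82.8 CPM, 87.2 CPM, 89.6 CPM, 70.5 CPM and 69.5 CPM on average in KO LPS BMS, KO LPS, WT LPS, KO and WT, far above CDC25C itself. Without a stated strand setting, it is open how reads of genes overlapping on opposite strands were assigned. For genes on the same strand that setting would not separate reads. These are overlaps of whole gene spans, and overlap of exons was not checked. Related copies of the members in the annotation held at most 6 counts in any library.

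Lists of other cell cycle genes were set beside the 54. Their counts stand against the shares of all genes called, which were 11.4% lower and 10.2% higher in KO against WT and 25.5% lower and 22.3% higher in KO LPS BMS against KO LPS. Of the regulators of mitotic entry, CDK1 and its cyclins CCNA2, CCNB1 and CCNB2 all fell with BMS (-0.48 ± 0.08, -0.50 ± 0.08, -0.56 ± 0.09 and -0.60 ± 0.10), in a list of 14 genes of which 8 fell (it shares CDC25B and CDC25C with the 54). In KO against WT 6 of the 14 fell, with CCNB2 at -0.40 ± 0.07 and the microtubule-binding GTSE1 at -0.58 ± 0.08. Of 19 genes of DREAM, MuvB, B-MYB, FOXM1 and the E2F family, 7 fell in KO against WT, among them the repressor E2F7 (-1.19 ± 0.19), FOXM1 (-0.50 ± 0.07) and the pocket proteins RBL1 (-0.41 ± 0.09) and RB1 (-0.38 ± 0.05). With BMS 8 of the 19 fell and 1 rose. RBL1 (-1.26 ± 0.13), RBL2 (-0.82 ± 0.08), E2F8, a repressor of the family (-1.03 ± 0.16), and MYBL2 (B-MYB, -0.46 ± 0.11) were among the falls, E2F3 was the rise (0.31 ± 0.07), and FOXM1 was not called (-0.04 ± 0.09, adjusted p = 0.721).

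Genes of G1/S and DNA replication had 15 falls among 32 in KO against WT and a median of -0.22. In WT LPS against WT, where 30.8% of all genes were lower, 31 of the 32 fell, with a median of -0.63, led by the replication licensing factor CDT1 (-1.61 ± 0.15) and MCM2 of the replicative helicase (-1.53 ± 0.08), and in KO LPS against KO, where 20.3% of all genes were lower, 27 fell, with a median of -0.49. With BMS 16 of them fell and 4 rose (median -0.28), with falls of PRIM1 of the primase (-1.41 ± 0.19) and POLA2 of DNA polymerase alpha (-1.30 ± 0.11) and rises of CDC6 (0.50 ± 0.13) and CDT1 (0.42 ± 0.16). In KO LPS against WT LPS 4 fell and 4 rose, a share near that of all genes (15.0% lower and 15.6% higher).

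Of 17 genes of the anaphase-promoting complex core and its activator FZR1, none was called in KO against WT (median -0.04). There 11.4% of all genes were lower and 10.2% higher. With BMS 4 of the 17 fell and 1 rose, and the share that fell is near the 25.5% of all genes. Of 25 further kinetochore and centromere genes 10 fell in KO against WT, where 11.4% of all genes did, and 10 with BMS, where 25.5% did, among them KNL1, the scaffold of the checkpoint (-0.49 ± 0.08 and -0.76 ± 0.11), and CENPI with BMS (-1.13 ± 0.15). Of 18 further condensin and cohesin genes 11 fell in KO against WT, led by NCAPD2 (-0.55 ± 0.05), and with BMS 8 fell and 6 rose. Among 12 genes of CDK inhibitors and the p53 and p21 pathway, 6 fell and 3 rose in KO against WT. The largest of the rises was that of CDKN1A (p21, 0.73 ± 0.06) and CDKN2B (p15) was another (0.68 ± 0.12), while CDKN2C (p18) and CDKN1B (p27) fell (-0.62 ± 0.12 and -0.39 ± 0.06). With BMS CDKN1A fell (-0.33 ± 0.07), CDKN2C fell further (-1.52 ± 0.19) and CDKN2B rose (0.47 ± 0.11).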

How the data were processed

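Gene expression was measured by RNA sequencing in 12 libraries of 5 groups. Per the labels' protocols, TRIzol served for RNA extraction and an NEBNext Ultra RNA kit for the libraries. The submitters' processing notes name CASAVA 1.7, Cufflinks and GRCh38. The authors deposited 1 table of whole-number read counts per Ensembl gene, without normalization, with counting tool and strand setting not given in the sources used here. From these counts, edgeR 4.0.16 (R 4.3.3) filtered low genes (filterByExpr), scaled by TMM and fitted all 12 libraries with 1 mean per group by the robust quasi-likelihood F test, with Benjamini-Hochberg adjustment over 16022 genes and a threshold of 0.05. The SE is the size of the log2 fold change divided by the square root of F. CPM use TMM-scaled library sizes, and a count of 3, the floor of detection, was worth 0.154 to 0.236 CPM. The depth was 13888283 to 17639136 counts per library.

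The 54 members and all other lists were chosen with earlier results of these data known. Any member could be named with its fold change, and values per library were given for a panel of members, for the largest called changes and for members called against the majority. Alternatives were DESeq2 1.42.0, other scalings, no filter, only the groups compared, a replicate block and leaving out each library. Replicate numbers were not taken to pair the libraries: deviations of same-numbered libraries correlated at 0.07, 0.04 and 0.01 in KO with WT, at 0.09 and 0.10 in KO LPS with KO, at -0.03 and 0.01 in WT LPS with WT, at -0.05 and -0.08 in KO LPS BMS with KO, at -0.14 in KO LPS with WT LPS and at -0.13 in KO LPS BMS with KO LPS, and a crossed block was added for the last 2 pairs of groups. Promoters are from RefSeq GRCh38.p14, and gene positions from GENCODE on GRCh38.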

Additional observations from a re-analysis of the deposited data

Results flagged for a closer look

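The LPS response of ESPL1, which encodes the protease separase, was called different between the genotypes by the interaction test, with KO minus WT at 0.47 ± 0.13 on the log2 scale (adjusted p = 0.0174). ESPL1 averaged 34.5 ± 1.06 CPM in KO LPS and 36.4 ± 0.459 CPM in KO (SD, n = 2 and 3 libraries), and 39.0 ± 5.85 CPM in WT LPS and 57.2 ± 5.25 CPM in WT (SD, n = 2 and 3 libraries). The difference ran from 0.33 to 0.64 when single libraries were left out. It did not pass without KO LPS replicate 2 (adjusted p = 0.0588), WT LPS replicate 1 (adjusted p = 0.0935) or WT replicate 3 (adjusted p = 0.059).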

How the results depend on the processing

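Of the settings tried, library size alone moved most. Under it, these log2 fold changes changed sign: in WT LPS against WT, NCAPG -0.06, CENPE -0.02, BUB1B -0.21, BUB3 -0.13, MAD2L1 -0.01, PLK4 -0.07, HMMR -0.22, PRC1 -0.07 and RACGAP1 -0.20. In KO LPS against KO these were NCAPG -0.23, CENPF -0.25, BUB1B -0.23, MAD2L1 -0.25, AURKA -0.20 and KIF20A -0.23, and in KO LPS BMS against KO they were KIFC1 -0.32 and PRC1 -0.32. Library size alone gave 34 falls, 1 rise and a median of -0.34 in WT LPS against WT, 35 falls, 1 rise and -0.29 in KO LPS against KO, medians of -0.33 in KO LPS against WT LPS, -0.58 in KO LPS BMS against KO LPS and -0.85 in KO LPS BMS against KO, and 2 higher in the interaction. Of all genes, 47.8% were then lower and 17.4% higher in WT LPS against WT, and 40% lower and 13.7% higher in KO LPS against KO. In the interaction 8% of all genes were then higher. DESeq2 gave 13 falls in WT LPS against WT and an interaction median of -0.03, RLE gave -0.03, 1 lower in the interaction and 2 rises in both comparisons of KO LPS BMS. No filter gave 2 rises in KO LPS BMS against KO LPS, and fitting only the groups compared gave an interaction median of -0.04, 1 lower there and 2 rises in KO LPS BMS against KO. The cause was not tested.

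Leaving out single libraries gave 42 to 46 falls, 0 rises and medians of -0.41 to -0.36 in KO against WT, and 31 to 40, 0 and -0.46 to -0.32 in KO LPS against WT LPS. It gave 12 to 19 falls, 6 to 12 rises and -0.13 to 0.01 in WT LPS against WT, 4 to 8, 4 to 6 and -0.08 to 0.02 in KO LPS against KO, and 0 to 1 lower, 0 to 3 higher and -0.08 to 0.07 in the interaction. It gave 33 to 38 falls, 1 to 3 rises and -0.49 to -0.43 in KO LPS BMS against KO LPS, and 35 to 40, 1 to 2 and -0.53 to -0.48 in KO LPS BMS against KO. Of all genes, 8.3% to 9.18% were then lower in KO against WT, against 11.4% with every library. In both LPS responses and both comparisons of KO LPS BMS a smaller share of all genes was lower too. In KO LPS against WT LPS and in the interaction that share moved both ways. Where 1 library was left in a group, it was assumed to vary like the others.

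The replicate block gave 48 falls in KO against WT, 37 in KO LPS against WT LPS, 40 in KO LPS BMS against KO LPS and 36 in KO LPS BMS against KO. In the same order, 10.1%, 13.7%, 24.6% and 30.4% of all genes were lower. Numbers may be crossed (correlations of -0.14 for KO LPS with WT LPS and -0.13 for KO LPS BMS with KO LPS). A crossed block, added after the data were seen, was fitted to only the groups compared. Its pairing was picked by the sign of these correlations, so more calls with it are not separate support. On only the groups compared and without a block, 9.06% of all genes were lower in KO LPS against WT LPS and 23% in KO LPS BMS against KO LPS. The crossed block gave 43 falls in KO LPS against WT LPS, where 19.6% of all genes were lower and 19.4% higher. In KO LPS BMS against KO LPS it gave 41 falls and 2 rises, where 28.6% of all genes were lower and 28.3% higher.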
